A study of Mus musculus with 4 samples.

Results

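Basement membrane genes were examined in ECs isolated from mouse lungs after unilateral pneumonectomy (PNX), the surgical removal of the left lung. The genes were chosen by symbol. A pattern took the symbols that begin with Col4a, Lama, Lamb or Lamc and a digit, which gave 18 genes, and 17 further genes were named singly, so that 35 of the 24063 gene symbols in the tables belong to the set. One symbol that the pattern matched, Col4a3bp, encodes a ceramide transfer protein and no component of basement membranes. It was counted with the set and is described apart from the other 34 genes. Both groups were C57BL6 mice of 8 weeks (C57BL6J in the study's methods), with no engineered allele named, either 7 days after PNX or sham-operated. Each group had 2 libraries, each made from the pooled lung cells of 2 mice that the labels give as male, and ECs were taken with magnetic beads that carry an antibody to CD31. The counts are of whole bead-selected fractions, so any cell type that the beads retained contributed to them.

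A basement membrane is a thin sheet of matrix under endothelium and epithelium and around muscle, fat and nerve cells. Laminins are secreted as trimers of an alpha, a beta and a gamma chain, polymerize at the cell surface and bind integrins and dystroglycan. Collagen IV trimers form a second, covalently crosslinked network, and nidogens and the heparan sulfate proteoglycans perlecan, agrin and collagen XVIII link both networks. In the alveolus the basement membranes of capillary endothelium and of type 1 epithelium are partly fused and form the gas exchange barrier. Collagen IV with alpha 1 and alpha 2 chains is nearly ubiquitous. In the lung, collagen IV with alpha 3, 4 and 5 chains and laminins made with the products of Lama3 and Lamb3 are known mostly from epithelial basement membranes, and laminins with alpha 4 or alpha 5 chains from endothelial ones.

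The counts on 1 transcript per gene came to between 41367438 and 50952879 per library, and a level of 3 counts, the smallest distinguished from 0, lay between 2.72 and 3.34 normalized counts, a limit that covers counting error only. Normalized counts are counts scaled by edgeR's TMM factors to the mean library size. Libraries of a group differed little, with a median SD of 0.036 on the log2 scale over the genes tested. The mean chi-square per gene, near 1 for counting error alone, was 1.74 between sham and 1.51 between post-PNX libraries. Between same-numbered libraries of the 2 groups it was 128 and 114. The spread within a group was thus little above counting error. Nothing in the labels says that the pools came from separate operations, so p-values measure only the spread between these pools. The libraries went against their label in 1 respect, since none of the 44 chromosome Y genes listed received a count while Xist had between 31872 and 33792 normalized counts. Of 12 EC markers, 10 fell and 1 rose at an edgeR adjusted p below 0.01, against 27.8% and 29.3% of all genes tested. The 12 markers summed to 12374 and 12505 CPM (counts scaled to the same library total) in sham and 10368 and 10411 in post-PNX libraries. Pecam1, which encodes CD31, had a log2 fold change of -0.01 (standard error 0.015, edgeR adjusted p = 0.636). Cdh5, which encodes VE-cadherin, had a log2 fold change of -0.22 (0.03 with scaling to the 12 EC markers). Markers of alveolar epithelium were present in every library as well, with 5849 and 5833 CPM over 5 type 2 genes in sham and 3813 and 3779 after PNX.

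A gene was called where edgeR's quasi-likelihood test gave an adjusted p below 0.01 and the level changed more than 2-fold, the cut-offs of the study's methods. By this rule 5 of the 35 genes were higher in post-PNX ECs and none was lower, with DESeq2's Wald test giving the same counts, against 5.90% and 1.66% of the 16208 genes tested. The called genes were Col15a1, Fras1, Col18a1, Lama1 and Nid2. By the adjusted p alone, 23 genes rose, against 29.3% of all genes tested, and 9 fell, against 27.8%. For 3 genes, Frem2, Smoc1 and Smoc2, the adjusted p was above 0.01. All 35 genes passed the filter on low counts. Their median log2 fold change was 0.46, beside a median of 0.001 over all genes tested. The libraries of the groups did not overlap in 34 of the 35 genes, but this was so for 81.2% of all genes tested. In such bulk fractions more cells of a type and more RNA per cell cannot be told apart.

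The scale on which these changes are read matters for the genes that fell, for those that changed little and for rises near the fold threshold. Scaling to the 12 EC markers in place of TMM raised the median log2 fold change of all genes by 0.25, and the counts by adjusted p alone became 26 higher and 2 lower, against 57.7% and 8.87% of all genes tested. Past both thresholds they became 9 higher and none lower, against 8.05% and 0.537% of all genes tested, so the background moved with the set. The 4 genes added to the called ones were Col4a1, Col4a2, Hspg2 and Frem1. Only Ntn4 and Col4a3 stayed lower past an adjusted p of 0.01 with that scaling.

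**Figure D1:**
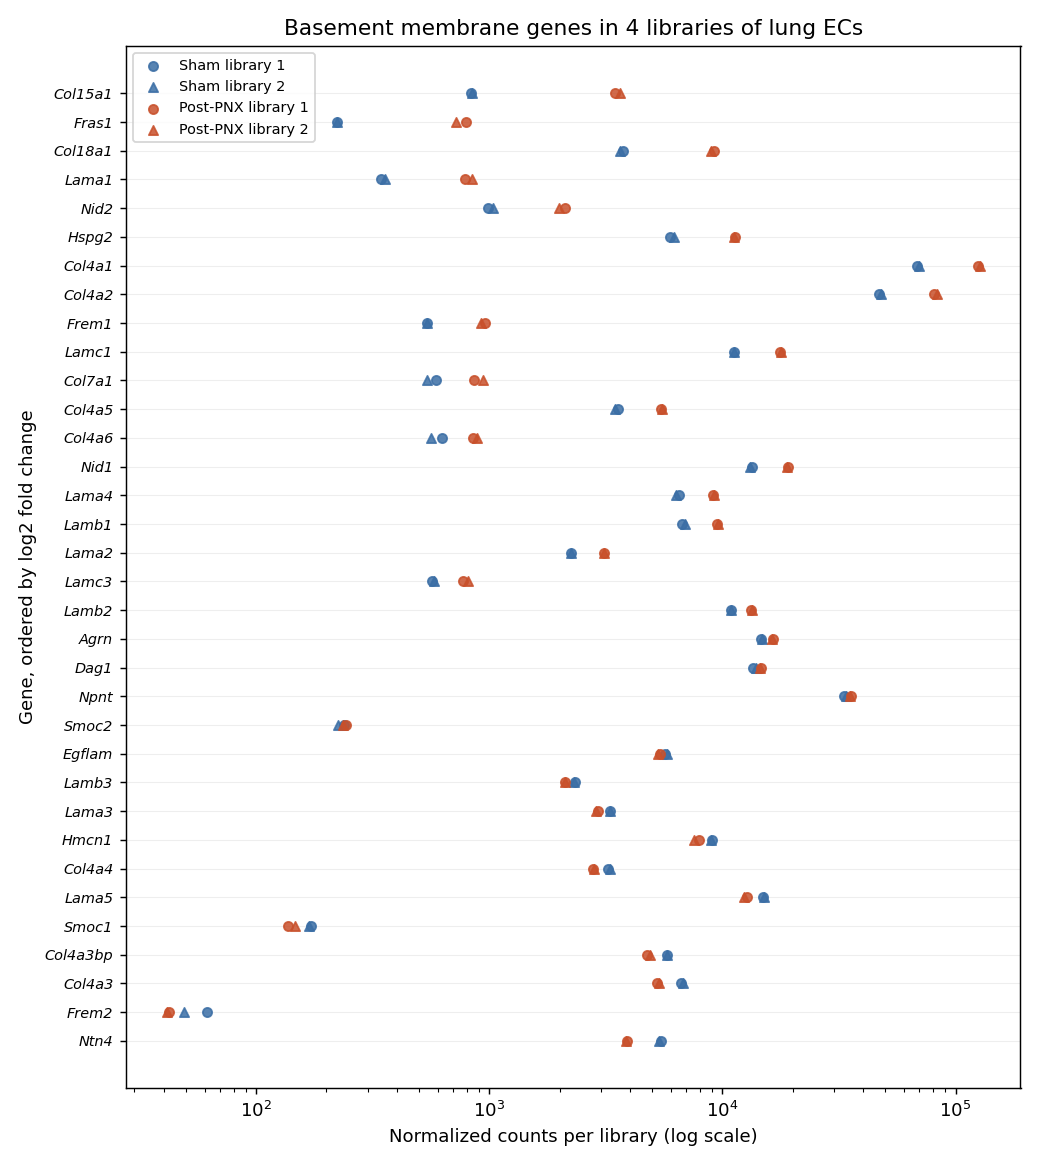
Normalized counts (log axis) of 34 of the 35 genes in each of the 4 libraries, with genes ordered by their log2 fold change. Circles and triangles are the first and second library of a group, blue for sham and orange for post-PNX, and levels of different genes are not comparable because transcript lengths differ. Col15a1, at the top, lies near 840 in sham and near 3550 in post-PNX libraries.

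Among the 6 collagen IV genes, Col4a1, Col4a2, Col4a5 and Col4a6 rose and Col4a3 and Col4a4 fell, and with the scaling to EC markers Col4a3 stayed lower (log2 fold change -0.09) while Col4a4 was slightly above 0 (0.03). Col4a1, which encodes the chain present in 2 copies in the common trimer, had 68449 and 69568 normalized counts in sham and 124445 and 127177 in post-PNX libraries. Its log2 fold change was 0.87 (standard error 0.016, edgeR adjusted p = 1.6e-49), an increase of 82.3%. Col4a2, the partner chain of that trimer, had 46934 and 47724 in sham and 81223 and 83033 after PNX, which is a log2 difference of 0.80 (standard error 0.017, edgeR adjusted p = 1.6e-46). Both genes thus rose by less than the 2-fold that the threshold asks, with both post-PNX libraries far above both sham libraries. They were also the most highly counted genes of the set, and per kilobase of transcript Col4a2 moved from rank 385 to rank 227 of the 24063 symbols, with Col4a1 above it at 129 after PNX.

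Col4a3 had 6638 and 6750 normalized counts in sham and 5239 and 5336 after PNX, which is a log2 difference of -0.34 (standard error 0.025, edgeR adjusted p = 1.1e-18). Col4a4 went from 3232 and 3286 to 2775 and 2808 (log2 fold change -0.22, standard error 0.032, edgeR adjusted p = 8.1e-09). Their products join the alpha 5 chain in a trimer, and mutations of these 3 genes cause Alport syndrome. Col4a5 did not follow them, with 3574 and 3445 normalized counts in sham and 5463 and 5491 after PNX (log2 fold change 0.64, standard error 0.028, edgeR adjusted p = 1.6e-29). Col4a6, whose chain forms a trimer with alpha 5, rose from 625 and 561 to 848 and 889 (log2 fold change 0.55). In Col4a3, 5.65% of the exon bases also belong to a transcript on the opposite strand in the annotation, and whether strand was used in the counting is not stated.

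The collagen IV genes lie in head-to-head pairs in the mm10 genome. Col4a1 spans 11198423 to 11312889 and Col4a2 spans 11312805 to 11449287 of chromosome 8, Col4a4 spans 82448419 to 82587034 and Col4a3 spans 82586921 to 82722059 of chromosome 1, and Col4a6 and Col4a5 share chromosome X. The 2 genes of each pair changed in the same direction, though Col4a4 was at 0.03 and Col4a3 at -0.09 with the scaling to EC markers. Per kilobase, the ratio of Col4a1 to Col4a2 was 1.42 in both sham libraries and 1.49 in both post-PNX libraries. Col4a3 to Col4a4 was 1.86 in both sham libraries and 1.71 and 1.72 after PNX, while Col4a5 to Col4a6 was 5.86 and 6.29 in sham and 6.60 and 6.32 after PNX, groups that nearly touch. The ratio across pairs moved much more, since Col4a1 to Col4a3 was 13.4 in both sham libraries and 30.9 and 31.0 after PNX. With 2 libraries a group, the smallest p of an exact permutation test of such ratios is 0.333, so no p is given for them.

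The start regions of Col4a1 and Col4a2 are shown because the genes moved together and are transcribed away from each other from nearly the same place. Each sequence runs 5′ to 3′ on the strand of its gene, from 250 bases before to 50 bases from the start site on, as given by RefSeq for GRCm38.p6, the same build as mm10. Col4a1 is chr8:11312777-11313076 on the minus strand and Col4a2 chr8:11312555-11312854 on the plus strand. The start sites lie 21 bases apart and the windows share 78 bases. Capitals mark matches, on either strand, of 4 motifs. They are the CCAAT box, spelled by its name. The GC box is spelled GGGCGG. The TATA box is spelled TATAAA. The TEAD core, recognized by the TEAD factors with which YAP1 acts, is spelled GGAATG. No matches overlap in the windows shown.
Col4a1: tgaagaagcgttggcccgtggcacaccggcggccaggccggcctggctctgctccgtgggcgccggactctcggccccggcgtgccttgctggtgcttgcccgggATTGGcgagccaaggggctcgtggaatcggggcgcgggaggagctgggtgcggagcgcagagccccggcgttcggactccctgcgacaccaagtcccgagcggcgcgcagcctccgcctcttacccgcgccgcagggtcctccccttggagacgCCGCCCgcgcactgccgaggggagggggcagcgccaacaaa
Col4a2: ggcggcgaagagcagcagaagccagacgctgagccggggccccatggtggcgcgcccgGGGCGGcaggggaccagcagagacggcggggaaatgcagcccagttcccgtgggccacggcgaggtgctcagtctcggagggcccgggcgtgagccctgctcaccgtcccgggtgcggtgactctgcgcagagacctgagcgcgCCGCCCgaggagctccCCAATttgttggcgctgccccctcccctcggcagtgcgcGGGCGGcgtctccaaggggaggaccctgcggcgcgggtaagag
The Col4a1 window held 1 CCAAT box and 1 GC box, and the Col4a2 window held 1 and 3. Of all 32851 RefSeq start windows of mouse genes, 37.4% held a CCAAT box, 35.7% a GC box, 13.6% a TATA box and 14.7% a TEAD core. RefSeq windows were at hand for 24 of the 35 genes, 31 windows in all, and of these 14 held a CCAAT box, 20 a GC box, none a TATA box and 6 a TEAD core. A match describes letters only and does not show that a factor binds there.

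Of the 11 laminin chain genes, 8 rose and 3 fell by adjusted p, against 29.3% and 27.8% of all genes tested. Falls were thus about as common as over all genes. The 3 that fell, Lama5, Lama3 and Lamb3, lay at log2 fold changes of -0.01, 0.06 and 0.11 with the scaling to EC markers. Among the alpha chains, Lama1, known mainly from embryonic and kidney basement membranes, was called, with 342 and 358 normalized counts in sham and 788 and 845 after PNX. Its log2 fold change was 1.22 (standard error 0.069, edgeR adjusted p = 4.5e-24), from a level per kilobase that ranked 13880 of 24063 symbols in sham, the lowest of the laminin chains. It lies on chromosome 17 from 67697127 to 67822645. Lama4, the alpha chain found in most vascular basement membranes, rose from 6519 and 6338 to 9137 and 9203 (log2 fold change 0.51, standard error 0.023, edgeR adjusted p = 1.7e-28). Lama5, the other endothelial alpha chain and also an epithelial one, went the other way, from 14953 and 15118 to 12690 and 12413 (log2 fold change -0.26, standard error 0.020, edgeR adjusted p = 1.3e-17). Lama2, known from muscle and nerve, rose from 2237 and 2239 to 3111 and 3116 (log2 fold change 0.48, standard error 0.033, edgeR adjusted p = 7.3e-20).

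The unequal changes of Lama4 and Lama5 reversed their order in level per kilobase, though not in normalized counts. Per kilobase of transcript, Lama5 held 44.1% and 44.8% of the alpha chain level in sham libraries and 33.7% and 33.0% after PNX. Lama4 held 36.2% and 35.4% in sham and 45.6% and 46.1% after PNX, so that Lama5 led in both sham libraries and Lama4 in both post-PNX libraries. Shares within a class do not depend on how libraries are scaled. Lama2 went from 7.76% to 9.70% and Lama1 from 1.24% to 2.60% on average, while Lama3 went from 10.8% to 8.46%. With TMM, the level summed over the 5 alpha genes changed little, from 2977 and 2963 to 3311 and 3299 normalized counts per kilobase. The scaling to EC markers, which raised the median log2 fold change of all genes by 0.25, would enlarge this change.

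Lama3 and Lamb3, whose products occur in epithelial laminin, had small changes. Lama3 had 3301 and 3303 normalized counts in sham and 2919 and 2866 after PNX (log2 fold change -0.19, standard error 0.031, edgeR adjusted p = 3.1e-07). Lamb3 had 2328 and 2317 in sham and 2109 and 2108 after PNX (log2 fold change -0.14, standard error 0.036, edgeR adjusted p = 5.0e-04), and the adjusted p was above 0.01 in DESeq2's Wald test. All 5 markers of type 1 alveolar epithelium fell in the same libraries, and their summed level was 1659 and 1679 CPM in sham and 1180 and 1188 after PNX. The part of this epithelium in the levels of Lama3, Lamb3, Col4a3 and Col4a4 was not tested.

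Lamb1, Lamb2, Lamc1 and Lamc3 rose. Lamb1 went from 6695 and 6938 to 9488 and 9560 normalized counts (log2 fold change 0.48, standard error 0.023) and Lamb2, the beta chain of mature vessels, from 10850 and 10900 to 13272 and 13407 (log2 fold change 0.29, standard error 0.021). Lamc1, the gamma chain of most laminins, had the largest change of the chains other than Lama1, from 11182 and 11194 to 17645 and 17790 (log2 fold change 0.66, standard error 0.020, edgeR adjusted p = 9.6e-38). Lamc3, a further gamma chain, went from 570 and 577 to 769 and 812 (log2 fold change 0.46, standard error 0.061). In the beta class Lamb2 held about the same share in all libraries, between 52.2% and 52.7%, while Lamb1 went from 32.0% to 36.3% and Lamb3 from 15.5% to 11.5% on average. Summed per kilobase, the 3 beta genes went from 3662 and 3710 to 4522 and 4558, by more than the alpha genes.

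**Figure D2:**
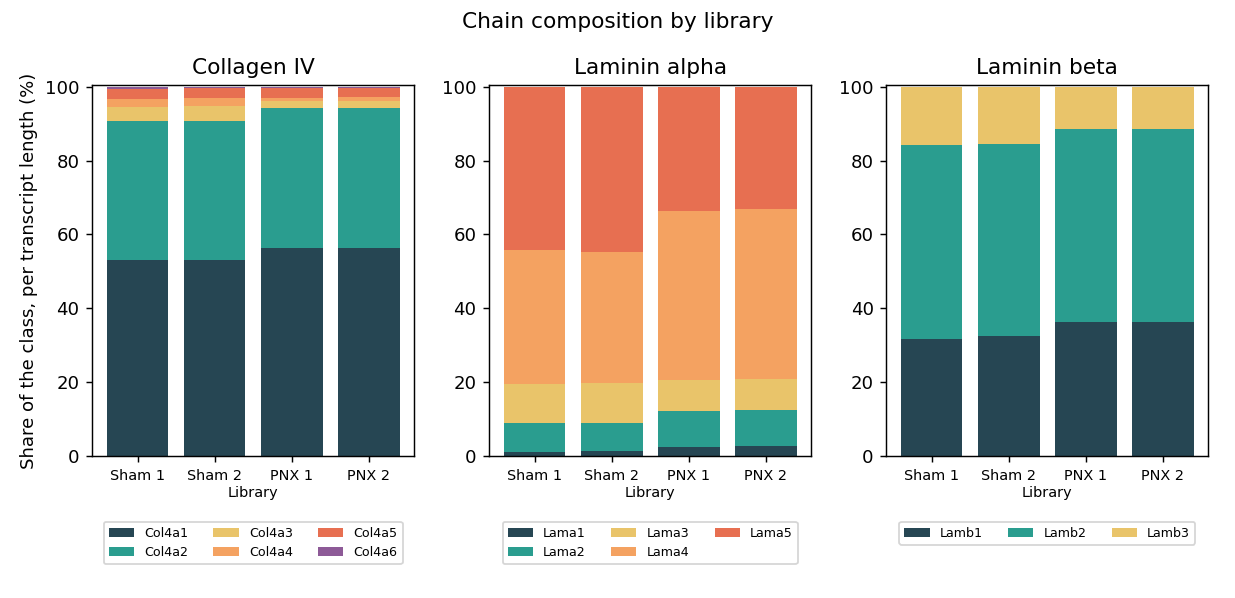
Share of each chain in the level of its class, per transcript length (%), stacked for each of the 4 libraries, for collagen IV and for the laminin alpha and beta chains. Lama4 took the larger share from Lama5 in both PNX libraries, and Col4a1 and Col4a2 together made up over 90% of collagen IV in every library.

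The linking components all rose. Nid2, which encodes the second nidogen, had 984 and 1039 normalized counts in sham and 2114 and 1994 after PNX, which is a log2 difference of 1.03 (standard error 0.044, edgeR adjusted p = 9.0e-30). It lies on chromosome 14 from 19751257 to 19811787, and 8.45% of its exon bases are shared with Rtraf on the opposite strand. Nid2 was only just past the fold threshold, and it was not called without the first sham library or without the first post-PNX library, where the lowest log2 fold change was 0.98. Nid1, the main nidogen, had 13397 and 13106 in sham and 19128 and 18991 after PNX (log2 fold change 0.52, standard error 0.020, edgeR adjusted p = 1.1e-32). Hspg2, which encodes perlecan, rose from 5930 and 6207 to 11309 and 11217 (log2 fold change 0.89, standard error 0.023, edgeR adjusted p = 3.8e-41). Agrn, which encodes agrin, changed much less, from 14700 and 14815 to 16409 and 16279 (log2 fold change 0.15, standard error 0.020, edgeR adjusted p = 1.7e-09). Agrn remained the higher of these 2 proteoglycan genes per kilobase, with 2000 against 428 normalized counts per kilobase in sham and 2215 against 794.5 after PNX.

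Col15a1, with the largest change of the set, and Col18a1 encode the multiplexins, collagens with interrupted helices that carry glycosaminoglycan chains and whose C-terminal ends can be released as restin and endostatin. Col15a1 had 837 and 840.0 normalized counts in sham and 3473 and 3627 after PNX. Its log2 fold change was 2.08 (standard error 0.040, edgeR adjusted p = 3.0e-48), a 4.23-fold rise, and it lies on chromosome 4 from 47207655 to 47313167. Col18a1, on chromosome 10 from 77052178 to 77166530, had 3759 and 3634 in sham and 9166 and 8920 after PNX (log2 fold change 1.29, standard error 0.026, edgeR adjusted p = 1.9e-47). Col7a1, the collagen of anchoring fibrils, rose from 593 and 539 to 863 and 937 (log2 fold change 0.66, standard error 0.061, edgeR adjusted p = 9.0e-15). Between sham and post-PNX ECs Col15a1 moved from rank 11023 to rank 5685 in level per kilobase and Col18a1 from 5676 to 2459.

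For Col18a1, 2 transcripts that share most of their exons were listed, and the annotation gives 2 start sites, 52825 bases apart. Which transcript begins at which start site was not determined. The longer transcript had 4149 and 3565 counts in sham and 9328 and 8006 after PNX. The shorter one had 3887 and 3343 in sham and 8966 and 7667 after PNX. Their difference, which is the reads on bases of the longer transcript alone less those on bases of the shorter alone, was 6.31% and 6.23% of the longer transcript's counts in sham and 3.88% and 4.23% after PNX. Reads of the 2 start regions themselves cannot be separated from these tables. Both annotated start regions are shown, with the same marks, build and window as above. They lie on the minus strand of chromosome 10, from 77166481 to 77166780 upstream and from 77113656 to 77113955 downstream.
Col18a1 upstream: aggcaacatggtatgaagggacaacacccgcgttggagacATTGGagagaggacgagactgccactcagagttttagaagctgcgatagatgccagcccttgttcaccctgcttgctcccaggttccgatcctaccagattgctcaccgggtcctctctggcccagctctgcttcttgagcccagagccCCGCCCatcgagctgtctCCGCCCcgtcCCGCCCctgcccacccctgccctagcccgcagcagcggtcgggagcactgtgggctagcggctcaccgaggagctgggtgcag
Col18a1 downstream: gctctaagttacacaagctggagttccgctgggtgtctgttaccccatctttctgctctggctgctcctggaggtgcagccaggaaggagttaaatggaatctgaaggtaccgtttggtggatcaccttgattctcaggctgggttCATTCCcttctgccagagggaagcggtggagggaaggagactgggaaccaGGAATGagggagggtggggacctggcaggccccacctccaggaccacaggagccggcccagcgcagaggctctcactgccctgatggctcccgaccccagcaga
The upstream window held 1 CCAAT box, 3 GC boxes and neither of the other motifs, and the downstream window held 2 TEAD cores and none of the others.

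The Fraser complex, which anchors embryonic epithelium to the mesenchyme below it, is formed by the products of Fras1, Frem1 and Frem2. Fras1 had 223 and 222 normalized counts in sham and 793 and 722 after PNX, which is a log2 difference of 1.77 (standard error 0.078, edgeR adjusted p = 3.2e-29). It lies on chromosome 5 from 96373777 to 96784733 and was the second largest rise of the set, at a low level of 14.0 normalized counts per kilobase in sham and 47.8 after PNX. Frem1 rose from 543 and 542 to 955 and 920 (log2 fold change 0.79, standard error 0.059, edgeR adjusted p = 1.9e-18). Frem2 had the fewest counts of the set, 61.6 and 48.9 in sham and 42.2 and 41.2 after PNX, and did not pass (log2 fold change -0.41, standard error 0.22, edgeR adjusted p = 0.0971). The 3 genes therefore did not change alike. Npnt, which encodes nephronectin, a ligand of integrin alpha 8 beta 1 deposited in alveolar basement membrane, was among the most abundant genes of the set. With TMM it changed by only 5.04%, from 33375 and 34043 to 35451 and 35362 (log2 fold change 0.07, standard error 0.017, edgeR adjusted p = 3.3e-04). With the scaling to EC markers its log2 fold change was 0.32. Without the first sham library the adjusted p of Npnt was above 0.01.

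Of the other genes, Ntn4, which encodes netrin 4, a laminin-binding protein that hinders laminin polymerization, had the largest fall of the set. It had 5465 and 5364 normalized counts in sham and 3878 and 3865 after PNX (log2 fold change -0.48, standard error 0.027, edgeR adjusted p = 5.3e-24). It was lower in both post-PNX libraries also with the scaling to EC markers (log2 fold change -0.23, edgeR adjusted p = 8.8e-08). Hmcn1, which encodes hemicentin 1, fell from 9003 and 8930 to 7947 and 7577 (log2 fold change -0.21, standard error 0.023), but lay at 0.04 with the scaling to EC markers.

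Dag1 encodes dystroglycan, the cell surface receptor of laminin, agrin and perlecan. It rose 1.06-fold, from 13561 and 13903 to 14629 and 14476 (log2 fold change 0.08, standard error 0.020, edgeR adjusted p = 2.5e-04). With the scaling to EC markers its log2 fold change was 0.34. Egflam, which encodes pikachurin, a dystroglycan ligand, fell by 0.10 on the log2 scale (edgeR adjusted p = 4.1e-04), but had a log2 fold change of 0.15 with the scaling to EC markers. Neither change was robust: the adjusted p of Dag1 was above 0.01 without the first sham library, and that of Egflam without the second post-PNX library and in DESeq2's Wald test.

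The SMOC genes, which encode calcium-binding proteins related to SPARC, were low. Smoc1 had 172 and 168 normalized counts in sham and 137 and 146.0 after PNX (log2 fold change -0.27, standard error 0.12, edgeR adjusted p = 0.0493). Smoc2 had 238 and 223 in sham and 242 and 236 after PNX, the only overlap of the groups in the set (log2 fold change 0.05, standard error 0.10, edgeR adjusted p = 0.685). With the scaling to EC markers Smoc2 was higher after PNX (log2 fold change 0.30, edgeR adjusted p = 0.00883). Col4a3bp, the ceramide transfer protein gene, fell from 5810 and 5789 to 4758 and 4885 (log2 fold change -0.27, standard error 0.026) and had a log2 fold change of -0.02 with the scaling to EC markers.

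**Figure D3:**
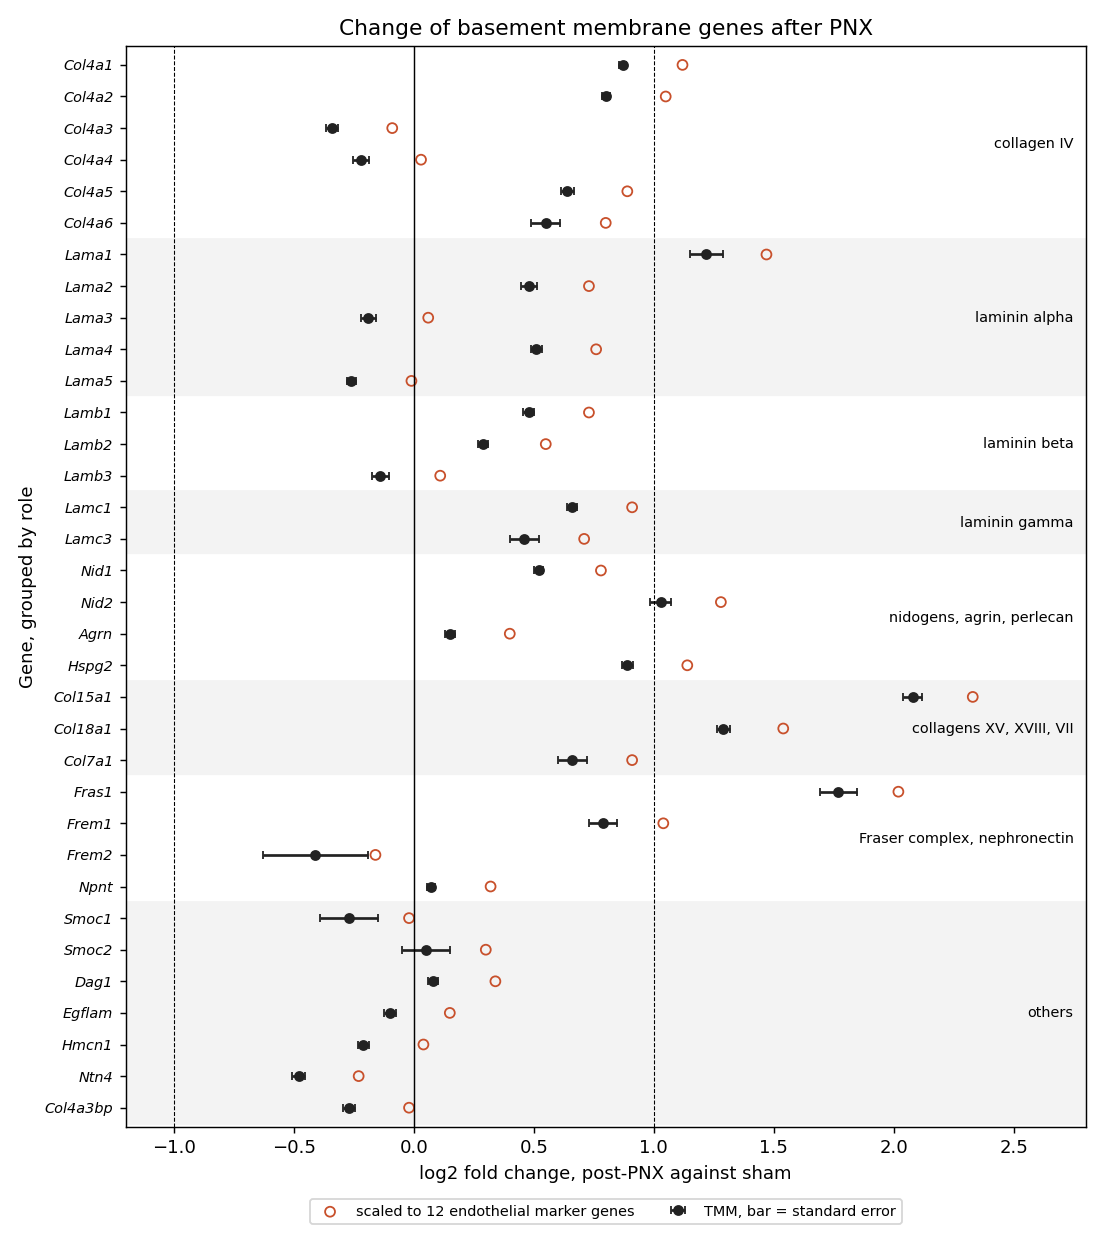
Log2 fold change of post-PNX against sham ECs for 34 of the 35 genes, grouped by role. Filled points are the TMM values with bars of 1 standard error, open points are scaled to 12 endothelial marker genes, and dashed lines mark the fold threshold. Lama3, Lamb3, Col4a4, Egflam and Hmcn1 are below 0 on the first scale and above 0 on the other.

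Per kilobase, collagen IV was by far the most abundant class. The 6 genes summed to 19481 and 19763 normalized counts per kilobase in sham and 33386 and 34106 after PNX, a ratio of group means of 1.72. The ratio was 1.63 for Hspg2, Agrn, Col18a1 and Col15a1 together, 1.49 for the nidogens, 1.23 for the laminin beta and 1.11 for the alpha genes. These ratios are with TMM, and the scaling to EC markers would make each of them larger. In each of these classes both post-PNX libraries were above both sham libraries. Within collagen IV, Col4a3 held 3.96% and 3.97% of the summed level in sham and 1.82% in each post-PNX library, and Col4a4 went from 2.13% to 1.06% on average.

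**Figure D4:**
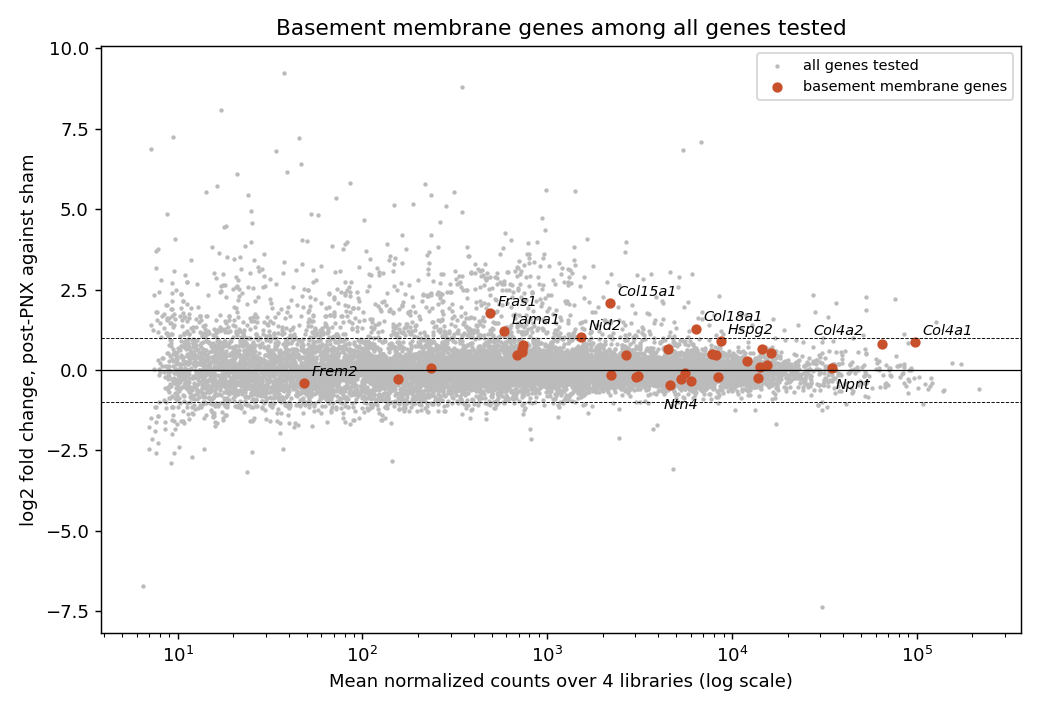
Log2 fold change against the mean of the normalized counts over the 4 libraries (log axis) for the 16208 genes tested (grey) and 34 of the 35 basement membrane genes (orange), with dashed lines at the fold threshold. Most of the set lies between the dashed lines, and Col15a1 has the largest change of it at 2.08.

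Genes that act on basement membranes without being in the set were taken from 4 lists. Of all genes tested, 29.3% rose and 27.8% fell by adjusted p, and 5.90% were called higher and 1.66% lower. Of 15 receptor genes, 9 rose and 3 fell by adjusted p (edgeR), none past the fold threshold, with a median log2 fold change of 0.21. The 3 that fell, named after their values were seen, were Itga1, a collagen receptor subunit, and Itga3 and Itga6, which form laminin receptors, with log2 fold changes of -0.41, -0.27 and -0.26 (-0.16, -0.02 and -0.01 with the scaling to EC markers). The largest of the 9 rises, also named after their values were seen, were those of Itga7 (0.74) and Sdc4 (0.59). Of 12 genes for the assembly and crosslinking of collagens, 9 rose and the other 3 (P4ha1, P4ha2 and Mia3, named after their values were seen) had log2 fold changes between -0.06 and 0.06, with a median of 0.38 over the list. Loxl2 and Loxl1, which encode lysyl oxidases, had the largest rises among the 3 called, with log2 fold changes of 1.34 and 1.21. Of 17 other genes of matrix next to or in basement membranes, 11 rose and 4 fell, and 7 were called, led by Fn1 for fibronectin (2.22) and Vwa1 (1.61), whose product binds perlecan. Of 18 genes for proteases, heparanase and their inhibitors, 14 rose and 1 fell, and 4 were called, led by the inhibitor gene Timp1 (3.32) and Mmp2 (1.71), a protease that cleaves collagen IV.

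Markers of other cell types moved in the same libraries. Their rises and falls are by adjusted p, by which 29.3% of all genes tested rose and 27.8% fell, and 5.90% of all genes were called higher. Of 6 fibroblast markers 4 were called higher, and the summed level went from 938 and 949.5 CPM to 2936 and 2962, but Pdgfra had a log2 fold change of -0.23 (0.02 with the scaling to EC markers) and Tcf21, named after its value was seen, of 0.02. All 6 mesothelial markers rose, from a sum of 250 and 253 to 519.5 and 528.5, with Msln and Upk3b at log2 fold changes of 1.97 and 1.08. Of 7 pericyte and smooth muscle markers 6 rose, from 430 and 433 to 561 and 561, and the 5 macrophage markers listed in the tables rose, from 423 and 416 to 898 and 899. The 4 pan-leukocyte markers summed to 1076 and 1080 in sham and 1146 and 1164 after PNX, and Ptprc had a log2 fold change of -0.00. Within the endothelium, all 6 general capillary markers fell, from 6064 and 6079 to 4283 and 4291, while 3 aerocyte markers rose and 3 fell, with sums of 2099 and 2098 in sham and 2076 and 2109 after PNX. Of the 6 large vessel markers 3 rose and 3 fell, with sums of 1652 and 1679 against 1703 and 1712. The 5 lymphatic markers summed to 1266 and 1267 in sham and 745.6 and 762.6 after PNX. Of the 4 tested, however, 2 rose and 1 fell, with a median log2 fold change of 0.18. The 1 that fell was Lyve1 (-1.14), from 44903 and 44521 normalized counts in sham to 20125 and 20334 after PNX. Prox1 had a log2 fold change of 0.43, and Ccl21a was at or below 3 counts in every library. All 4 airway markers fell, from 3593 and 3614 to 1753 and 1691, and 4 pan-epithelial genes summed to 258.5 and 260.6 in sham and 239.1 and 240.5 after PNX. Adipocyte markers had sums between 22.83 and 23.75 CPM, mostly from Cidec, but Adipoq had 0.906 and 1.02 normalized counts in sham against 81.6 and 103.6 after PNX and Plin1 6.34 and 7.14 against 44.2 and 37.9. The part of these cells in the rise of Col15a1, Col18a1, Fras1, Lama1, Nid2 and the collagen IV genes was not tested.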

How the data were processed

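RNA of CD31-selected lung cells was prepared with a stranded mRNA kit and sequenced as paired ends. The submitters' processing notes name STAR and mm10. The counting program, its strand setting and versions are not given in the sources used here. The authors deposited whole-number counts per RefSeq transcript, with FPKM and TPM values computed by the authors from the same reads. A read was counted for each transcript of a gene that it overlaps, so each symbol was represented by its most counted transcript. Transcript lengths were derived from the deposited counts and FPKM, and the deposited TPM values served 1 alternative.

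Tests used edgeR 4.0.16 under R 4.3.3 (filterByExpr, TMM, quasi-likelihood F test without covariates, Benjamini-Hochberg adjustment over 16208 genes). A standard error is the log2 fold change divided by the square root of F. Steps were tested on simulated data. Alternatives were DESeq2's size factors, 12 EC marker genes for scaling, no count filter, DESeq2 1.42.0, glmTreat, the replicate block, summed transcripts and each library left out. Of the set, 34 genes are given by name, with up to 2 called genes per direction from each related list, the sorting markers and, where values bear on a result, the first markers of each cell type. Some items, in the set and in the marker lists, are not reported here. The genes, lists and tests were chosen with earlier results of these data known.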

Additional observations from a re-analysis of the deposited data

How the results depend on the processing

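The 5 called genes stayed called with DESeq2's size factors, no count filter, DESeq2's Wald test and transcripts summed. Scaling to the 12 EC markers moved most: 9 genes were called higher, 2 were lower by adjusted p and the median log2 fold change of the set was 0.71, beside a median of 0.25 over all genes. Over all genes that scaling called 1305 higher and 87 lower, against 957 and 269 with TMM. It turned the sign of Col4a4 (0.03), Egflam (0.15), Hmcn1 (0.04), Lama3 (0.06) and Lamb3 (0.11), by its construction as a shift of all genes. Only Egflam and Lamb3 were then higher at an edgeR adjusted p below 0.01 (1.7e-05 and 0.00688). For Col4a4, Hmcn1 and Lama3 the edgeR adjusted p was 0.439, 0.12 and 0.0865. Without each library in turn, the number called higher was between 4 and 5 (Nid2 lost), the number rising by adjusted p between 21 and 23, the number falling between 8 and 9, and the median between 0.43 and 0.48; a group then has 1 library, assumed to vary like the other group's. The glmTreat test of a change beyond the threshold called 4, without Nid2.

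With the deposited TPM summed over transcripts, which counts the shared reads of Lamb3 and Col4a5 more than 1 time, the share of Lamb1 changed by 4.87, of Lamb2 by 1.47 (reversed from -0.217) and of Lamb3 by -6.35 percentage points, and the ratio of Col4a5 to Col4a6 by 0.789 in place of 0.388. The libraries share the replicate numbers 1 and 2, but deviations of same-numbered libraries correlated at only 0.02 over 13402 genes, and the replicate block called the same number higher, 5.

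Counts under 100, as in Frem2, limit what these depths can show, and with 2 pools a group only their spread is measured.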
